A study of Arabidopsis thaliana with 6 samples.

Results

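Transcripts of 40 Arabidopsis thaliana genes of ribosomal RNA processing and ribosome assembly were followed in wild-type plants and in a ucp1 ucp3 double mutant, so named by the labels. The 40 loci were chosen by function, from fibrillarins and nucleolins to the export factors of the large subunit, with earlier results of these data known. All 40 were found among the 27416 genes of the deposited tables. They are covered by 46 of 35386 transcript models, whose estimated counts were summed per locus. By role, 7 belong to the core of small nucleolar ribonucleoproteins (snoRNPs), 2 are nucleolins, 13 act in small subunit processing, 14 in large subunit assembly, and 4 in cytoplasmic maturation and export.

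Ribosomes are assembled mostly in the nucleolus, where RNA polymerase I transcribes a long precursor of ribosomal RNA. SnoRNPs modify and help to fold this precursor, a large complex called the small subunit processome cuts and packs the small subunit part, and a separate series of factors builds the large subunit. Export adaptors and cytoplasmic GTPases then finish the particles, and in plants many genes of this pathway are most active in dividing and growing tissue.

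The study sequenced polyadenylated RNA with a stranded library kit in 2 groups of 3 biological replicates, to compare plants of the Columbia ecotype with and without mutations in UCP1 and UCP3, which encode carriers of the mitochondrial uncoupling protein family. All plants were 21 days old, grew on MS medium under normal conditions, carried no treatment in either group, and were sampled as vegetative tissue. The wild-type group served as the control. The mutant alleles, their number of lines and the way in which the replicates were separated are not given in the sources used here, so p-values measure only the spread between these samples.

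The 6 libraries held from 1183612 reads in ucp1 ucp3 replicate 3 to 11296137 in ucp1 ucp3 replicate 2, a 9.54-fold range. Replicate 3 of the labelled mutants also stood apart from the other 5 libraries on the first principal component of all genes, at 59.3 against -28.8 to 9.42. Levels are given as CPM, the reads of a gene per 1000000 reads of its scaled library. UCP1 (AT3G54110) had 69.2, 67.3 and 75.3 CPM in the wild-type libraries and 67.2, 46.6 and 53.3 CPM in the labelled mutant libraries. UCP3 (AT1G14140) had 12.3, 16.1 and 13 CPM against 8.68, 10.2 and 10.8 CPM. Transcripts of both targeted genes were thus present in every library, with log2 fold changes of -0.35 and -0.49 (edgeR adjusted p = 0.226 and 0.224), so their levels are no check of the genotype. The group is called the labelled mutants for that reason, and each direction depends on the labels.

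Most of the ribosome biogenesis transcripts had lower levels in the labelled mutants, by a small amount, and few single genes passed the test. In all, 39 of the 40 genes could be tested by the quasi-likelihood F test of edgeR, fitted over 17415 genes. At an adjusted p under 0.05, 4 of the 39 fell and 0 rose. The 4 were U3RNP-like and UTP21-like of the small subunit group, and NOP58-1 and FIB2 of the snoRNP core. Over all tested genes 0.482% were called lower and 0.781% higher, that is 84 lower and 136 higher, against 10.3% lower among the 39. With library totals in place of TMM scaling the split over all genes was 110 lower and 109 higher, with 5 of the 39 lower. The count changed with the libraries used. Leaving out replicate 1 of wild-type, or either replicate 1 or replicate 3 of the labelled mutants, left 0 of 39 called by edgeR, with 23, 19 and 19 at an unadjusted p under 0.05 and a lower level. The count was 1 without wild-type replicate 3, 3 without wild-type replicate 2, and 11, these 4 among them, without replicate 2 of the labelled mutants.

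The direction was shared far more widely than the calls. The genes were chosen with earlier results of these data known, so the shares below are a description and not an independent test. Of the 39 tested genes, 38 had a log2 fold change below 0, a share of 97.4%, against 50.3% of all tested genes. The median log2 fold change was -0.38 (quartiles -0.54 and -0.20), which corresponds to 76.8% of the wild-type level. The median of all tested genes was 0.00, with quartiles of -0.18 and 0.18. In 31 of the 39 (79.5%) all 3 labelled mutants lay below all 3 wild-type libraries, against 12.4% of all tested genes, and in 0 of the 39 did they all lie above. An unadjusted p under 0.05 with a lower level was found for 25 of the 39 (64.1%), against 8.37% of all tested genes, and 0 of the 39 had such a p with a higher level. DESeq2 called 6 of the 40 lower, namely ENP1, FIB2, NOP56, NOP58-1, RRP5 and UTP21-like. Over the 22858 genes with a DESeq2 estimate it called 157 lower and 232 higher. The test of limma-voom called 2 of the 39 lower, NOP58-1 and UTP21-like, and 78 lower and 124 higher over 17415 genes. Neither tool called any gene of the set higher.

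**Figure D1:**
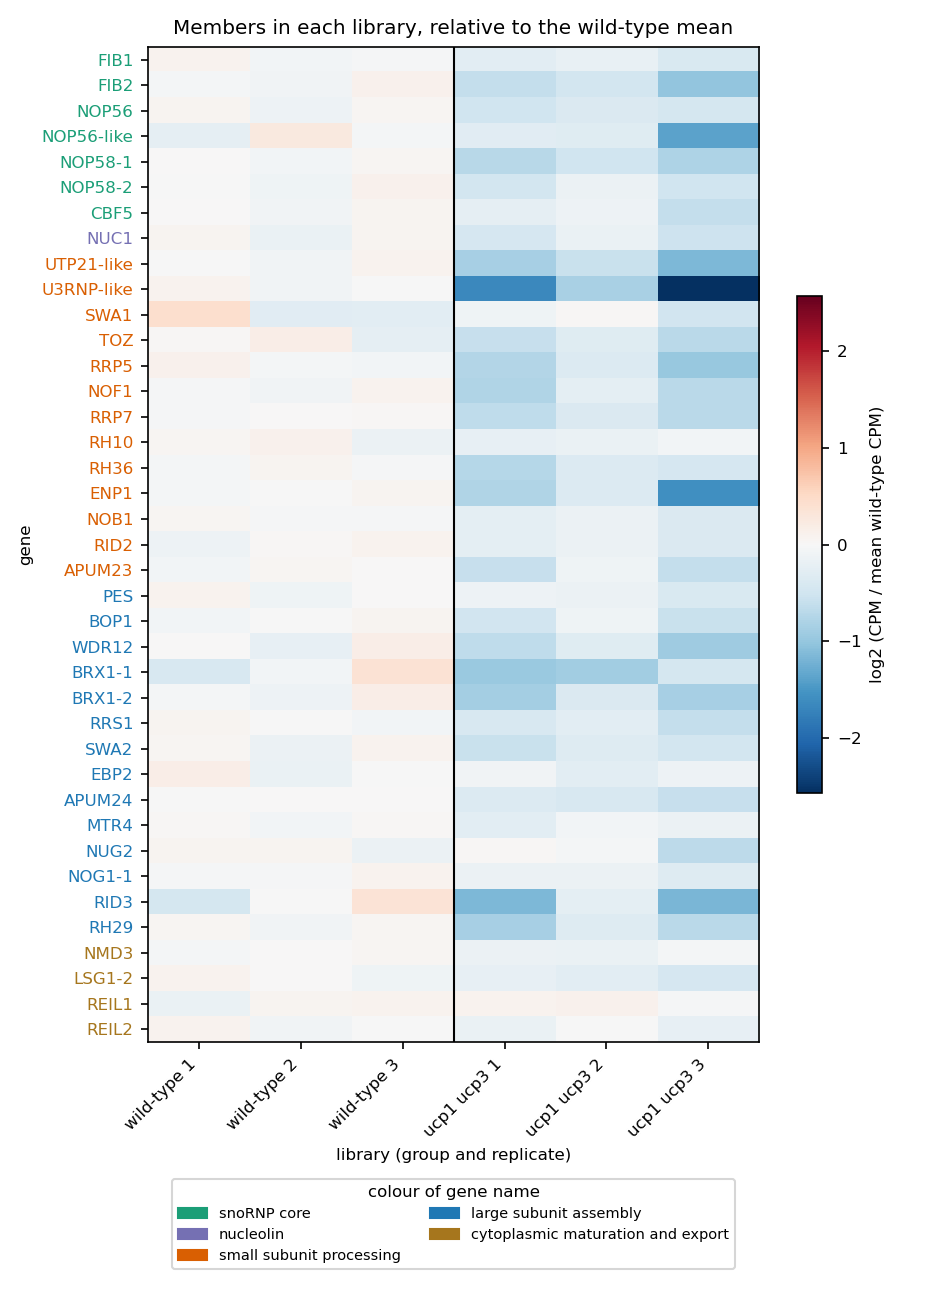
Level of each of the 39 tested genes (rows) in each of the 6 libraries (columns), as log2 of CPM over the mean wild-type CPM, with gene names coloured by role. The wild-type columns are near white, the columns of the labelled mutants are mostly blue, and ucp1 ucp3 replicate 3 holds the lowest value of 28 of the 40 genes.

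Together the 40 genes took 0.272%, 0.257% and 0.274% of all reads in the 3 wild-type libraries and 0.195%, 0.227% and 0.171% in the 3 labelled mutants. On the per-length scale of the deposited TPM values their summed level was 1728, 1641 and 1719 TPM in wild-type and 1176, 1431 and 1095 TPM in the labelled mutants. The groups did not overlap on either scale. Within the labelled mutants, the deepest library, replicate 2, lay nearest to wild-type and was the highest of the 3 for 30 of the 40 genes, while the shallowest, replicate 3, was the lowest for 29. The median log2 ratio of the genes to their wild-type mean was -0.47, -0.26 and -0.58 in labelled mutant replicates 1 to 3, against 0.00, -0.06 and 0.04 in wild-type. Depth, and the position of replicate 3 on the first principal component, thus moved with the size of the shift among the labelled mutants, and their part in it was not tested. In summed level, labelled mutant replicates 1 and 2 were below every wild-type library, as was replicate 3.

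**Figure D2:**
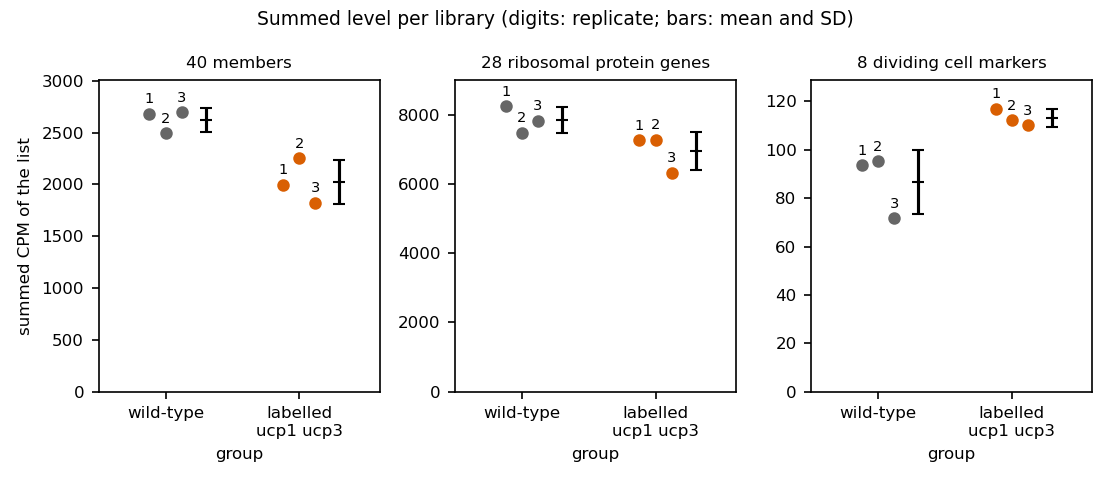
Summed CPM per library of the 40 genes, of 28 genes of cytosolic ribosomal proteins and of 8 markers of dividing cells. Points are libraries with their replicate number, bars show the mean and SD of 3 libraries, and the 40 genes sum to 1825 to 2250 CPM in the labelled mutants, below the wild-type range of 2491 to 2698 CPM.

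Levels of single genes differed widely. In mean TPM over the 6 libraries the nucleolin gene NUC1 was the highest at 276 TPM and held 18.8% of the summed level. FIB1 followed with 150 TPM and NOP56 with 91.3 TPM. The median of the 40 was 20.6 TPM (quartiles 11.8 and 42.3), and NUC2, U3RNP-like and NOP56-like were the lowest at 0.61, 3.17 and 4.31 TPM. The shift did not rest on NUC1, because the other 39 genes summed to 2126, 2019 and 2140 CPM in the wild-type libraries and to 1606, 1784 and 1458 CPM in the labelled mutant libraries.

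Promoter sequences were read from the RefSeq TAIR10.1 genome, because genes that move together are often compared for shared promoter elements. The deposited tables hold no coordinates, and the submitters' processing notes name TAIR10, so the windows are those of the RefSeq annotation. In the window from 250 bases before to 50 bases after each annotated gene start, both strands were searched for the telo box, AAACCCTA, and for the site II core, TGGGCC or TGGGCT, counting overlapping matches separately. Both elements are known from plant ribosomal protein and cell cycle gene promoters. A telo box was found for 23 of the 40 genes (57.5%), against 6.2% of 27443 protein-coding nuclear promoters. A site II core was found for 27 (67.5%), against 21.7%, and both for 17 (42.5%), against 2.2%. Among the promoters of 17322 tested genes, 5.5% held a telo box, 26.5% a site II core and 2.5% both. Of 28 genes of cytosolic ribosomal proteins, 39.3% held a telo box, 71.4% a site II core and 28.6% both. Of 36 other biogenesis factors the shares were 27.8%, 52.8% and 13.9%. Of 13 genes of the exosome and XRN2 they were 38.5%, 38.5% and 23.1%, and 0 of 6 RNA polymerase I genes held either motif. All 7 snoRNP core genes held a telo box, as did both nucleolins. It was found for 5 of 13 genes of small subunit processing, 8 of 14 of large subunit assembly and 1 of 4 of cytoplasmic maturation and export. A match is a run of letters in the window and says nothing of whether a factor binds there.

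For each gene of the snoRNP core and for UTP21-like, a called gene of the small subunit group, the telo box nearest to the annotated start is shown with 10 bases on each side, because all 7 core genes hold this motif. Capitals mark every telo box in the stretch, and sequences run 5′ to 3′ on the strand of the gene.
FIB1, chr5:21294140-21294167, plus strand: accaaagcatAAACCCTAaaagccctaa
FIB2, chr4:13074104-13074131, plus strand: aaccctgttaAAACCCTAgcttgaaaca
NOP56, chr1:20986952-20986979, minus strand: taaacccctgAAACCCTAgtttcgttcg
NOP56-like, chr3:4091560-4091587, plus strand: aaataaccttAAACCCTAatttctctta
NOP58-1, chr5:9540807-9540834, plus strand: atgcgttttaAAACCCTAggttacaaaa
NOP58-2, chr3:1416039-1416066, minus strand: cttaaaacctAAACCCTAactatggaag
CBF5, chr3:21156050-21156077, minus strand: ctgtcgcctaAAACCCTAaaAAACCCTA
UTP21-like, chr4:2517189-2517216, minus strand: aaatttcgttAAACCCTAaaccccaaag
Counting the first base of the gene as 1, the motif began at base 4 in FIB1 and NOP56-like, at base 1 in NOP58-2, at base 9 in CBF5, at base 12 in UTP21-like and at base 25 in FIB2. In NOP58-1 it began 44 bases before the start and in NOP56 17 bases before it. A second telo box of the window lay 207 bases before the start in FIB1, at base 19 in CBF5, where it ends the stretch shown, and at base 32 on the other strand in NOP56.

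The 250 bases before the start are given for NOP58-1, the gene with the smallest p of the 39, and for U3RNP-like, the gene with the largest fall, because their promoters hold opposite motif content. Capitals mark a telo box or a site II core on either strand, the latter reading GGCCCA or AGCCCA when it lies on the other strand.
NOP58-1, chr5:9540611-9540860, plus strand: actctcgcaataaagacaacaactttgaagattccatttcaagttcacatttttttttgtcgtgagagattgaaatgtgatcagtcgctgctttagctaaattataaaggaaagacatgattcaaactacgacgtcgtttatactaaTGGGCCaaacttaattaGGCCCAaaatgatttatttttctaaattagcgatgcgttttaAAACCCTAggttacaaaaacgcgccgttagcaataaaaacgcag
U3RNP-like, chr5:2785927-2786176, plus strand: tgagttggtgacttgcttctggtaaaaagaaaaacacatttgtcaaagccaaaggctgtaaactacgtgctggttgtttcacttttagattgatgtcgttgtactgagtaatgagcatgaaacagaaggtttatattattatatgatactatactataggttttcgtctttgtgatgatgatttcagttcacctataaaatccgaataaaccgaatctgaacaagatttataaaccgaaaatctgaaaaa
NOP58-1 holds 2 site II cores and 1 telo box in this stretch, and U3RNP-like holds neither motif in the whole window. Both genes were picked among those called lower, so their shared direction says nothing about the motifs. Tested genes of the set with a telo box, 22 in number, had a median log2 fold change of -0.41, and the 17 without it had -0.27. Split by both motifs, the 17 tested genes with both had -0.38 and the 22 others had -0.37.

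The snoRNP core carried 2 of the 4 calls. Fibrillarin is the ribose methyltransferase of box C/D snoRNPs, and NOP56 and NOP58 are the scaffold proteins that hold it on the guide RNA. All 7 genes of this group had estimates below 0 and groups that did not overlap, with a median log2 fold change of -0.38.

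NOP58-1 (AT5G27120), one of the paired genes for the NOP58 scaffold, had 84.7, 81.2 and 88.3 CPM in the wild-type libraries and 51.9, 59.6 and 48.7 CPM in the labelled mutant libraries, from 54 to 678 reads per library. It fell to 64.3% of wild-type (95% interval 54.1% to 76.5%), a log2 fold change of -0.64 with a standard error of 0.12 and an edgeR adjusted p of 0.0195. Its highest labelled mutant stood well below its lowest wild-type library. The paralogue NOP58-2 (AT3G05060) had 74.3, 69.0 and 80.2 CPM against 53.7, 67.1 and 52.4 CPM, where replicate 2 came close to wild-type. Its log2 fold change of -0.34 (interval -0.61 to -0.06) did not pass (edgeR adjusted p = 0.198). As TPM, NOP58-1 stood at 1.21 to 1.29 times NOP58-2 in wild-type and at 0.972 to 1.06 times in the labelled mutants. These ranges did not overlap, and the difference between the paralogues was not tested.

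FIB2 (AT4G25630) had 69.4, 67.0 and 77.6 CPM in the wild-type libraries and 46.6, 51.3 and 35.2 CPM in the labelled mutant libraries. It fell to 65.0% of wild-type (interval 53.4% to 79.2%), a log2 fold change of -0.62 with a standard error of 0.13 and an edgeR adjusted p of 0.0372. Its paralogue FIB1 (AT5G52470), the more abundant fibrillarin gene, had 174, 157 and 161 CPM against 136, 144 and 125 CPM. The FIB1 groups did not overlap either, but its log2 fold change of -0.27 (interval -0.50 to -0.03) did not pass (edgeR adjusted p = 0.235). As TPM, FIB1 stood at 2.21 to 2.66 times FIB2 in wild-type and at 3.00 to 3.76 times in the labelled mutants. These ranges did not overlap, the highest ratio rests on 39 reads of FIB2, and the difference between the paralogues was not tested. Such ranges overlapped for the NOP56, BRX1, REIL and APUM pairs, and in the nucleolin pair NUC2 had 0 reads in labelled mutant replicate 3. A further fibrillarin gene, FIB3 (AT5G52490), had 0 reads in all 6 libraries.

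NOP56 (AT1G56110) had 169, 147 and 165 CPM in the wild-type libraries and 112, 123 and 117 CPM in the labelled mutant libraries. The labelled mutants lay close together and below wild-type, with a log2 fold change of -0.44 (interval -0.68 to -0.21) that missed the threshold (edgeR adjusted p = 0.0633). NOP56-like (AT3G12860), a scarce second copy, had 5.94, 8.31 and 6.74 CPM against 5.71, 5.63 and 2.71 CPM, and the last value rests on 3 reads. CBF5, the pseudouridine synthase of box H/ACA snoRNPs, had 110, 104 and 116 CPM in the wild-type libraries and 93.2, 101 and 72.2 CPM in the labelled mutant libraries. Its groups were separated by a narrow gap, and its log2 fold change of -0.27 did not pass (edgeR adjusted p = 0.296).

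Nucleolin binds ribosomal DNA chromatin and nascent precursor RNA. NUC1 (AT1G48920), its main gene in vegetative tissue, had 555, 471 and 558 CPM in the wild-type libraries and 390, 466 and 367 CPM in the labelled mutant libraries. The groups were separated only just, by labelled mutant replicate 2 and wild-type replicate 2, and the log2 fold change of -0.37 (interval -0.63 to -0.10) did not pass (edgeR adjusted p = 0.154). NUC2 (AT3G18610), its scarce paralogue, had 13, 5 and 5 reads in wild-type and 2, 10 and 0 reads in the labelled mutants. That is 2.66, 1.39 and 1.16 CPM against 0.457, 0.879 and 0 CPM, under the expression filter, and a count of 0 in replicate 3 allows up to 2.71 CPM. NUC2 was therefore not tested, and its level cannot be compared between the groups at this depth.

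**Figure D3:**
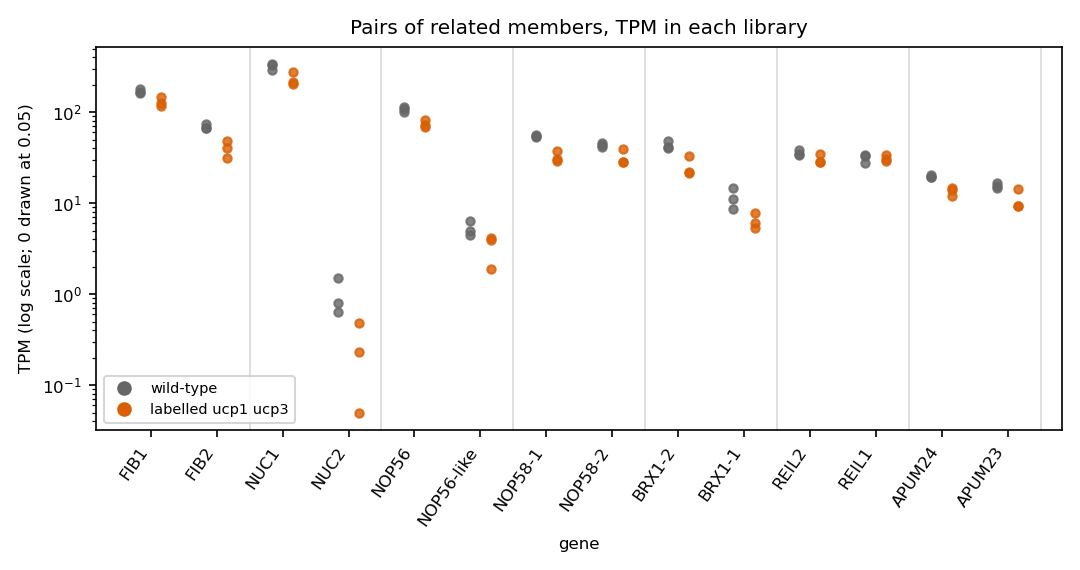
TPM of each gene of 7 related pairs on a log scale, by library, in grey for wild-type and orange for the labelled mutants, with a value of 0 drawn at 0.05. The more abundant gene of a pair is the same in all 6 libraries except for NOP58-1 and NOP58-2 and for REIL2 and REIL1, whose ratios in the labelled mutants run from 0.972 to 1.06 and from 0.939 to 1.02.

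Small subunit processing had the lowest median of the groups with 4 or more genes, -0.48, with all 13 estimates below 0, 2 of 13 called lower and 11 of 13 with groups that did not overlap. U3RNP-like (AT5G08600), annotated by RefSeq as a protein of the Utp family of the U3 snoRNP, had 11.5, 10.2 and 10.7 CPM in the wild-type libraries and 3.43, 6.07 and 1.81 CPM in the labelled mutant libraries. Its wild-type libraries were nearly equal, and every labelled mutant was far below them. It fell to 43.9% of wild-type (interval 29.2% to 65.8%), a log2 fold change of -1.19 with a standard error of 0.27 and an edgeR adjusted p of 0.0486, the largest fall of the 39. The lowest value rests on 2 reads, under the floor of 3 counts, and the gene passed the expression filter through its wild-type libraries. Neither DESeq2 nor limma-voom called U3RNP-like. All of its reads were assigned to the first of 2 transcript models.

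UTP21-like (AT4G04940) is a WD40 repeat protein, named here after yeast Utp21, a subunit of the processome. It had 28, 26.6 and 30.0 CPM in the wild-type libraries and 15.5, 18.9 and 12.6 CPM in the labelled mutant libraries, from 14 to 215 reads. It fell to 59.5% of wild-type (interval 47.1% to 75.2%), a log2 fold change of -0.75 with a standard error of 0.16 and an edgeR adjusted p of 0.0359. Replicate 2 was again the labelled mutant nearest to wild-type, and the groups were far from overlapping.

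RRP5 (AT3G11964), a long RNA-binding protein that acts at the earliest cleavages of the precursor, had 81.1, 71.7 and 71.4 CPM in the wild-type libraries and 44.3, 58.8 and 37.9 CPM in the labelled mutant libraries. ENP1 (AT1G31660), the bystin homologue, had 44.0, 45.2 and 47.6 CPM against 26.7, 35.6 and 15.3 CPM. The groups of both genes did not overlap. Their log2 fold changes of -0.60 (interval -0.91 to -0.29) and -0.65 (interval -1.05 to -0.25) did not pass, with edgeR adjusted p of 0.0584 and 0.0978. DESeq2 called both lower, and limma-voom called neither. APUM23 (AT1G72320), a pumilio protein of small subunit RNA processing, had 34.2, 37.4 and 36.3 CPM against 23.8, 33.1 and 23.5 CPM, which gave a log2 fold change of -0.35 with an edgeR adjusted p of 0.261.

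The remaining genes of small subunit processing did not pass the test. NOF1 (-0.49), RRP7 (-0.51), TOZ (-0.46) and the helicase gene RH36 (-0.48) had log2 fold changes close to the median of the group, all with groups that did not overlap. RRP7, a processome factor, had 18.6, 19.1 and 19.3 CPM in the wild-type libraries and 12.1, 14.7 and 11.7 CPM in the labelled mutant libraries, so its gap was wide against a narrow wild-type spread. NOB1, the endonuclease of the final small subunit cleavage, had -0.23 and the methyltransferase gene RID2 -0.21, both with separated groups. The helicase gene RH10, at -0.17, and SWA1, a WD40 gene needed for gametophyte development, at -0.11, overlapped between the groups. SWA1 had 32.8 CPM in wild-type replicate 1 but 19.9 and 20.2 CPM in the other wild-type libraries. Up to 16.6% of the sequence of RH36 and 4.6% of that of SWA1 lies opposite a neighbouring gene, whose reads may not be separable because the strand setting of the quantification is not given in the sources used here.

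Large subunit assembly held no called gene among 14 by edgeR, DESeq2 or limma-voom. All 14 estimates were below 0, 9 of the 14 had an unadjusted p under 0.05, and the median log2 fold change was -0.40. BRX1-2 (AT1G52930), a Brix domain protein that joins the early large subunit, had 36.4, 34.4 and 42.8 CPM in the wild-type libraries and 20.6, 29.2 and 20.8 CPM in the labelled mutant libraries. Its log2 fold change was -0.62 (interval -0.96 to -0.27; edgeR adjusted p = 0.0751). BRX1-1 (AT3G15460), its scarcer paralogue, had 8.39, 10.5 and 14.4 CPM against 5.71, 5.98 and 8.12 CPM, a log2 fold change of -0.85 (interval -1.39 to -0.31; edgeR adjusted p = 0.105). In BRX1-1 the order among the labelled mutants was unlike that of most genes, with replicate 3 the highest, from 9 reads.

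RH29 (AT1G77030), a helicase whose yeast relative Dbp10 acts on the large subunit, had 45.2, 40.7 and 44.9 CPM in the wild-type libraries and 24.0, 34.5 and 27.1 CPM in the labelled mutant libraries, which gave a log2 fold change of -0.57 with an edgeR adjusted p of 0.0752. SWA2 (AT1G72440), a homologue of the yeast Noc1 factor, had 64.5, 56.0 and 66.5 CPM against 42.0, 49.7 and 45.1 CPM, which gave a log2 fold change of -0.44 with an edgeR adjusted p of 0.0917. APUM24 (AT3G16810), a pumilio protein of large subunit RNA processing, had 36.4, 37.1 and 37.2 CPM against 28.8, 27.7 and 24.4 CPM, which gave a log2 fold change of -0.42 with an edgeR adjusted p of 0.111. The groups of all 3 genes were separated, and in APUM24 and SWA2 replicate 3 was not far from the other labelled mutants.

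The PES, BOP1 and WDR12 proteins form a trimer that is needed for large subunit precursor processing. Their genes did not have like values. WDR12 had a log2 fold change of -0.52, with 39.9, 33.8 and 44.6 CPM in the wild-type libraries and 25.1, 31.8 and 20.8 CPM in the labelled mutant libraries. BOP1 had -0.35, with 95.2, 98.6 and 105 CPM against 70.4, 91.7 and 66.8 CPM. PES had -0.20 (interval -0.45 to 0.05), with 80.6, 69.8 and 76.2 CPM against 68.8, 67.8 and 57.8 CPM. The groups were separated for all 3 genes, widely for BOP1 replicates 1 and 3 and only just for PES, and none of the 3 passed (edgeR adjusted p = 0.112, 0.190 and 0.430).

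Of the other large subunit genes, RRS1, a factor of the early particle, had -0.38 with separated groups and NOG1-1, a nucleolar GTPase gene, -0.20 with separated groups. RID3, a WD40 gene of shoot meristem formation, had -0.61 with 11.9, 16.3 and 20.9 CPM in the wild-type libraries and 7.31, 13.7 and 7.22 CPM in the labelled mutant libraries, so that its groups overlapped. The groups also overlapped for EBP2 (-0.19), the exosome helicase gene MTR4 (-0.15) and the GTPase gene NUG2 (-0.14). NUG2 had 92.5 and 87.2 CPM in labelled mutant replicates 1 and 2, within the wild-type range of 81.8 to 95 CPM, and 56.9 CPM in replicate 3. Of the sequence of RID3, 8.8% lies opposite a neighbouring gene, and of RRS1 5.4%.

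**Figure D4:**
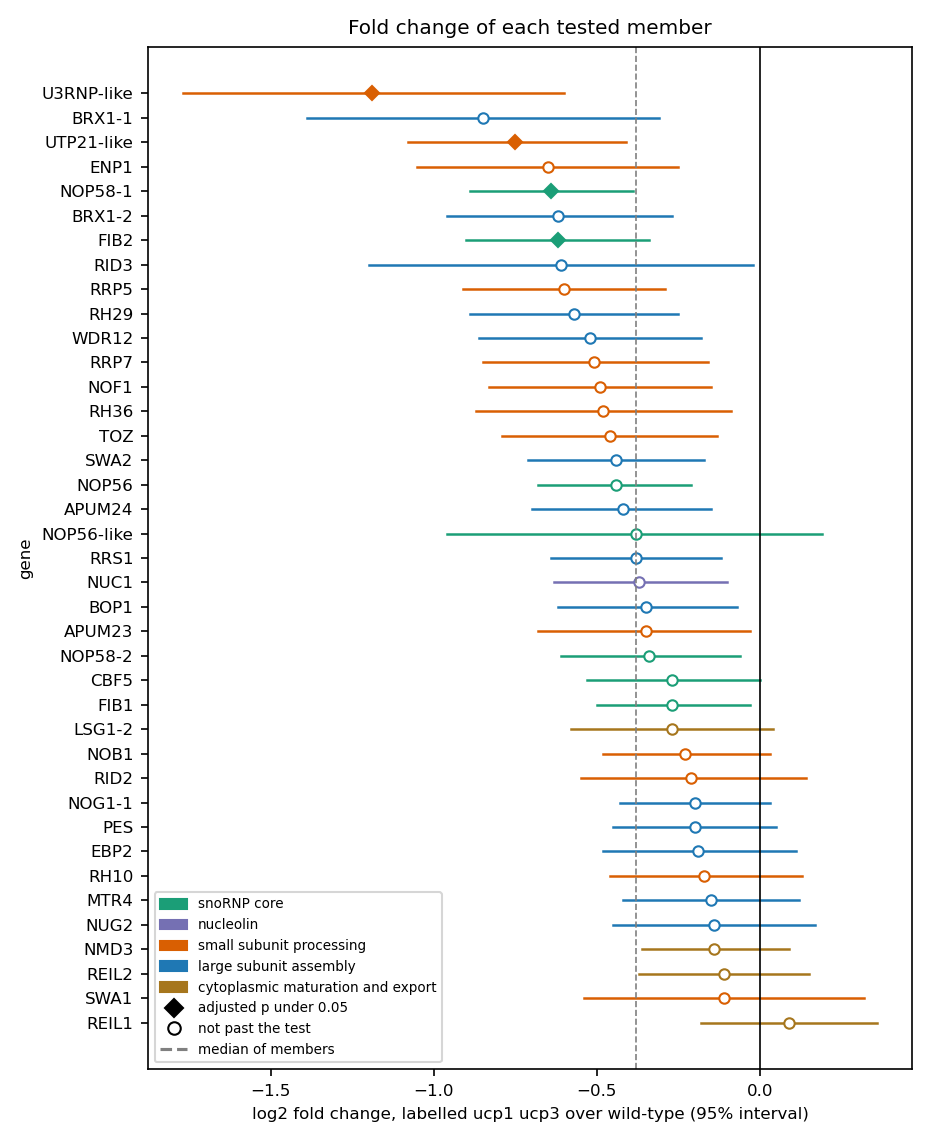
Log2 fold change of each of the 39 tested genes with its 95% interval, coloured by role, with filled diamonds for an adjusted p under 0.05 and a dashed line at the median of -0.38. REIL1, at 0.09, has the only estimate above 0, and the 4 called genes lie between -1.19 and -0.62.

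The 4 genes of cytoplasmic maturation and export were the nearest to wild-type, with a median log2 fold change of -0.12 and summed levels of 209, 212 and 217 CPM in wild-type against 197, 201 and 196 CPM in the labelled mutant libraries. REIL1 (AT4G31420) and REIL2 (AT2G24500), zinc finger proteins of late large subunit maturation related to yeast Rei1, both overlapped between the groups. REIL1 had 35.6, 42.4 and 42.8 CPM against 43.0, 43.7 and 39.7 CPM, a log2 fold change of 0.09 (interval -0.18 to 0.36). REIL2 had 48.1, 42.1 and 44.6 CPM against 38.8 to 44.4 CPM, with replicate 2 the highest, a log2 fold change of -0.11 (interval -0.37 to 0.15). NMD3, the export adaptor of the large subunit, had -0.14 and LSG1-2, the GTPase that releases it, had -0.27, both with separated groups. For NMD3 they were separated only just, with 99.3 CPM in the highest labelled mutant and 99.7 CPM in the lowest wild-type library. None of the 4 passed the edgeR test, with adjusted p of 0.802, 0.720, 0.577 and 0.387 in that order, and none had an unadjusted p under 0.05. A difference between this group and the nucleolar groups was not tested.

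Genes of the same pathway outside the 40 had estimates mostly in the same direction. None of these pathway lists held a gene called by edgeR. Among 36 other biogenesis factors, 33 of the 35 tested had estimates below 0, the median was -0.32, and 19 had an unadjusted p under 0.05 with a lower level. DESeq2 called 3 of them lower and limma-voom 0. The smallest p values belonged to the RNA methyltransferase gene NOP2A, with which gave a log2 fold change of -0.63 with an edgeR adjusted p of 0.0633, to SAHY1 with -0.65 (0.0659) and to the large subunit gene RPF2 with -0.61 (0.0734). SAHY1, a WD40 gene of small subunit processing, had 41.6, 39.3 and 39.0 CPM in the wild-type libraries and 28.1, 27.4 and 14.4 CPM in the labelled mutant libraries. UTP14, which shares its RefSeq family name with U3RNP-like, had -0.28.

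All 6 RNA polymerase I genes had estimates below 0, with a median of -0.45, and 4 had an unadjusted p under 0.05. The largest subunit gene, NRPA1, had 44.4, 39.3 and 52.1 CPM in the wild-type libraries and 26, 38 and 24.4 CPM in the labelled mutant libraries. In the list of the exosome and the exonuclease XRN2, 10 of 13 estimates were below 0, with a median of -0.15 and 3 of 13 at an unadjusted p under 0.05. Of 28 genes of cytosolic ribosomal proteins, 26 had estimates below 0, with a median of -0.21 and 9 of 28 at an unadjusted p under 0.05. Their summed level was 8244, 7488 and 7825 CPM in the wild-type libraries and 7259, 7284 and 6323 CPM in the labelled mutant libraries. DESeq2 and limma-voom called 0 genes of these 3 lists.

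The 3 genes of nucleolar histone deacetylases, HDT1, HDT2 and HDT3, had log2 fold changes of -0.52, -0.29 and -0.21, with 0 called by the 3 tools and 2 at an unadjusted p under 0.05. Of the sequence of HDT1 and HDT2, 20.4% and 15.1% lie opposite neighbouring genes. In the list of the TOR kinase pathway and of nucleolar stress regulators, 3 of 7 estimates were below 0 and the median was 0.05, with 0 called by the 3 tools and 0 at an unadjusted p under 0.05. TOR itself had a log2 fold change of 0.05 and ANAC082, a transcription factor gene of the ribosomal stress response, -0.22. These medians stand beside 0.00 for all tested genes, and no list was tested against another.

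**Figure D5:**
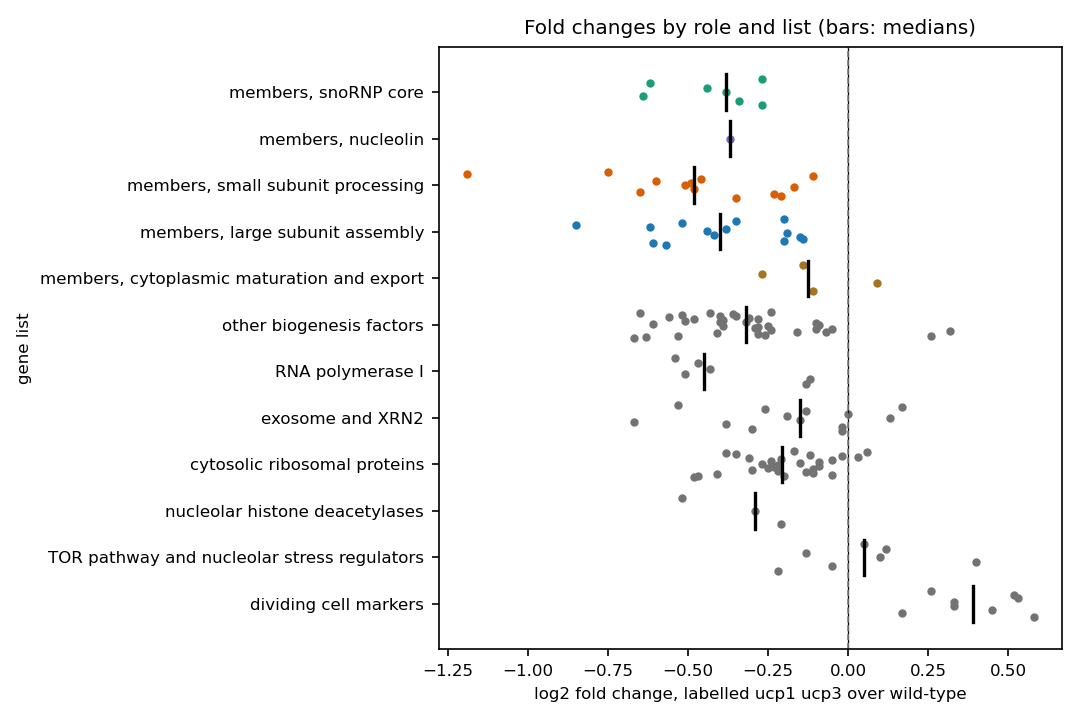
Log2 fold change of each tested gene (points) by role within the 40 genes (coloured) and in the other lists (grey), with bars at the medians. The medians run from -0.48 for small subunit processing to 0.39 for dividing cell markers, and that of the TOR pathway list is 0.05.

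Markers of other tissues and cell states were read beside the shift, since in whole tissue fewer cells of a type and less RNA per cell cannot be told apart. The 8 markers of dividing cells had estimates above 0 in 8 of 8, with a median of 0.39, opposite in sign to the biogenesis genes. Their summed level was 93.5, 95.3 and 71.6 CPM in the wild-type libraries and 117, 112 and 110 CPM in the labelled mutant libraries. edgeR, DESeq2 and limma-voom called 0 of the 8, and 3 had an unadjusted p under 0.05 with a higher level, against 8.04% of all tested genes. In 3 of the 8 all labelled mutants lay above wild-type, against 1950 of the 17415 tested genes. Of the sequence of KNOLLE and CDKB2;2, 32.0% and 11.9% lie opposite other genes, and CYCB1;2 shares 19.4% with other genes on the same strand. Of the young organ markers, ANT had a log2 fold change of 0.25 and STM of -0.27. Both overlapped between the groups, and WUS had at most 0.205 CPM in any library.

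Leaf markers summed to 31270, 28990 and 29250 CPM in the wild-type libraries and 39090, 33160 and 41240 CPM in the labelled mutant libraries. In group means the sum went from 29830 to 37830 CPM and CAB1 alone from 11000 to 18300 CPM. Of the 4 estimates 3 were above 0. RBCS1A, at a mean of 11900 against 12100 CPM, had 0.03 and overlapped between the groups. RCA had 0.3 and did not pass (edgeR adjusted p = 0.319). CAB1, a chlorophyll-binding protein gene, rose by 0.72 on the log2 scale (edgeR adjusted p = 0.0320), and 32.1% of its sequence is shared with other genes on the same strand. RBCS1B had an estimate of -0.33 and was called lower by DESeq2, not by edgeR or limma-voom. Root markers summed to 51.8 to 76.2 CPM in the wild-type libraries and 63.6 to 98.7 CPM in the labelled mutant libraries, with 4 of 4 tested estimates above 0, 0 called by the 3 tools, 0 at an unadjusted p under 0.05 and WOX5 at most 0.554 CPM. Flower markers summed to 2.56 to 3.88 CPM against 5.26 to 8.12 CPM. AG, AP3 and AP1 had 0 to 6, 0 to 5 and 0 to 11 reads per library and were not tested. For AP3 and AP1 all 3 labelled mutants lay above wild-type, at these few reads. The same order was found for 1950 of the 17415 tested genes. The part of these markers in the lower level of the biogenesis genes was not tested.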

How the data were processed

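Polyadenylated RNA of 6 libraries was measured, 3 per group. Per the submitters' processing notes, the authors used kallisto, DESeq2 and TAIR10, with no versions given. The deposited tables hold, per transcript model, estimated counts and TPM; strand setting and index are not given in the sources used here. Estimated counts were summed per locus and rounded. TPM deposited by the authors was summed per locus and used for levels between genes, for the summed level of the set and for ratios within related pairs.

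The test was that of edgeR 4.0.16, run in R 4.3.3 (default expression filter, TMM, robust quasi-likelihood F test, group as the only term, Benjamini-Hochberg adjustment over 17415 genes, called at an adjusted p under 0.05). CPM is counts over the TMM-scaled library size. Intervals are at 95%. The floor of 3 counts corresponds to 0.264 to 2.71 CPM and covers counting error only. The procedure was tested on simulated counts. The 14 alternatives include DESeq2 1.42.0 and limma-voom (limma 3.58.1).

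The genes, lists and named-gene rule were chosen with earlier results of these data known. Values per library are given for called genes, the 10 smallest p, the related pairs, the 3 highest and 3 lowest in TPM, and up to 3 genes per further list. Other genes were chosen after their values were seen. Symbols are working names, matched by locus to RefSeq TAIR10.1, which matched 26719 of 27416 genes. Sequence sharing was counted in 31-mers of annotated mRNAs.

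Same-numbered replicates of the groups did not deviate together (correlations of -0.0682, -0.0964 and -0.0111), so the main fit used no pairing. These values cannot show whether same-numbered replicates were grown or prepared together, which is not given in the sources used here. Within each group, replicates differed beyond sampling noise (chi-square over degrees of freedom 2.41 to 6.38), so none was merged.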

Additional observations from a re-analysis of the deposited data

How the results depend on the processing

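The median log2 fold change of the tested genes stayed between -0.49 and -0.30 over the 14 alternatives, 0 genes of the set were called higher in any of them. The count of genes called lower, 4 of 39, was less stable. It was 1 of 39 with a block on replicate number (NOP58-1), for which the sources give no pairing, and 2 with limma-voom. It was 8 with no filter on low counts and 0 after thinning every library to the smallest, and leaving out 1 library gave 0 to 11. Over all genes, the 220 calls became 389 with DESeq2, 490 with no filter, 5 after thinning, and 53 to 673 with 1 library left out. NOP58-1 was called in 10 of 14 alternatives, UTP21-like in 8, FIB2 in 7 and U3RNP-like in 5 of 13. Signs turned after thinning for NOP56-like (0.21), SWA1 (0.03), RRS1 (0.01), EBP2 (0.00) and UCP3 (0.31), and for SWA1 with 1 library left out (-0.24 to 0.18, the latter without wild-type replicate 1); the cause was not tested. Thinning leaves the depth of the shallowest library, at which few calls can be made. In the library of 1183612 reads, 3 counts are 2.71 CPM, close to the level of U3RNP-like and NOP56-like.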

Other observations

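Over all tested genes, promoters that held both a telo box and a site II core were those of 437 genes, with a median log2 fold change of -0.096 and 66.8% of estimates below 0. The 12216 genes with neither motif had a median of 0.013 and 48.1% of estimates below 0. Leaving out the listed genes of ribosome synthesis, 404 genes with both motifs had a median of -0.085. All 3 labelled mutants lay below wild-type in 21.5% of them, against 10.9% of the genes with neither motif. The lists do not hold every gene of ribosome synthesis, so the 404 can still include such genes. The 513 genes with a telo box alone had a median of -0.086, and the 4156 with a site II core alone had -0.023. None of the 6 RNA polymerase I promoters held either motif, and the median log2 fold change of that list was -0.45. These values are a description of the fit over all genes, and no test was made.

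APUM23 reads were divided between 3 transcript models in a way that differed between libraries. The third model took 0% of the locus in the 3 wild-type libraries and in labelled mutant replicate 2, but 66.2% in replicate 1 and 99.9% in replicate 3, as shares of TPM. The second model took 59.5% to 69.4% of the locus in wild-type, 61.1% in replicate 2 and 0.06% in replicates 1 and 3. The shares are kallisto estimates for overlapping models, and the difference was not tested.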
